A study of Rattus norvegicus with 16 samples.

Results

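A set of 6 rat genes, Ppp2r2c, Map2k4, Asb13, Fam168a, Xkr6 and Ptprn2, was described across 16 single-channel expression arrays of rat brain. They were chosen from these same arrays because their signal was lower after infusion of cells than after saline, so the values of that contrast are given as a description and carry no test. They are 6 of the 20471 genes that could be tested, and 10 probes matched them. The normal controls were 5 rats that had no MCAo, the occlusion of the middle cerebral artery that serves as a stroke model. The saline group was 5 rats with MCAo and saline. The hUMSC group was 6 rats with MCAo that received 1000000 human umbilical mesenchymal stem cells by vein (IV-hUMSC), numbered 5 to 10 in the labels. All were 8-week-old rats, and the labels give 72 h for the time since occlusion. There was no sham-operated group, the infused cells come from another species, and the labels give neither hemisphere, sex nor hour of infusion. They do not say that the samples of a group came from separate litters or operations, so the p-values measure the spread between these samples alone.

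The genes belong to different pathways. Ppp2r2c encodes a brain-enriched B-type regulatory subunit of protein phosphatase 2A (PP2A), which directs the catalytic subunit to its substrates, and Map2k4 encodes a kinase that activates the stress kinases JNK and p38, a cascade known for its part in neuronal injury. Asb13 is a substrate receptor of the cullin 5 ubiquitin ligase. Fam168a has been linked to DNA polymerase beta and base excision repair, Xkr6 is a membrane protein of the XK family, some members of which scramble phospholipids in dying cells, and Ptprn2 (phogrin) is a phosphatase-like protein of the dense-core vesicles that carry neuropeptides and hormones.

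The promoters of the 5 members with an entry in the promoter table are shown, so that the sequences at the starts of genes picked for a shared pattern can be compared. They are RefSeq sequences on the GRCr8 build, from 250 bases before to 50 bases after the annotated start, written 5′ to 3′ on the gene's strand. Capitals mark the GC box GGGCGG and the E-box CACGTG, each searched on both strands, so that CCGCCC is a GC box read on the other strand.
Ppp2r2c (chr14:78156163-78156462, minus strand): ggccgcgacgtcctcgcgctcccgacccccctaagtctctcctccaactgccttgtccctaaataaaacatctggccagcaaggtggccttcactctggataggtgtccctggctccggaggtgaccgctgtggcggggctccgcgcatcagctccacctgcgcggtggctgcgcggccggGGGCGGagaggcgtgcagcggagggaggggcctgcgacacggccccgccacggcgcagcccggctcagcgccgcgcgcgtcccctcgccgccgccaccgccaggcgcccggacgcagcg
Map2k4 (chr10:50946990-50947289, minus strand): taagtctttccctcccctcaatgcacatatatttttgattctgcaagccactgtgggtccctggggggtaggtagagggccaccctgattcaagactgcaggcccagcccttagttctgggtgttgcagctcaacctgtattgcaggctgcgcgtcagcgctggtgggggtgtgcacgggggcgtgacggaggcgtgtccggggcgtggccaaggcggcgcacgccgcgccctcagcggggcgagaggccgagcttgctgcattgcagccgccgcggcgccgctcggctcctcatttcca
Asb13 (chr17:71493189-71493488, minus strand): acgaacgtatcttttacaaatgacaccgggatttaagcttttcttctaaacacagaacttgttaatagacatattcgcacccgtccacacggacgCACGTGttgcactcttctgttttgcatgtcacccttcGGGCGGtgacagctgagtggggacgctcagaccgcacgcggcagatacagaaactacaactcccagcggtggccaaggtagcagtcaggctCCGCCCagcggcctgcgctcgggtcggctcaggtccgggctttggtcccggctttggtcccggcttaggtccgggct
Fam168a (chr1:164469197-164469496, plus strand): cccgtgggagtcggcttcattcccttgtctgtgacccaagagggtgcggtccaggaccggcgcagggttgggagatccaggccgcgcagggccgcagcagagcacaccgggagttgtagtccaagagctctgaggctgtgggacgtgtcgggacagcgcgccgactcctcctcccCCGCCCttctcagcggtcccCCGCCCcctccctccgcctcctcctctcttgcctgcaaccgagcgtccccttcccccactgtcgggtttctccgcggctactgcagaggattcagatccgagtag
Ptprn2 (chr6:143582318-143582617, plus strand): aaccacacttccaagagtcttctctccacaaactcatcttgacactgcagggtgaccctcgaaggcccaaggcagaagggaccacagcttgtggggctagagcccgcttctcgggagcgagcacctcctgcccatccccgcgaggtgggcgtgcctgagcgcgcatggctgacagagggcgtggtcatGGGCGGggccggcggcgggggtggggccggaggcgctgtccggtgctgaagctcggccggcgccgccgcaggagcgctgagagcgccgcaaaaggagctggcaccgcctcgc
The GC box stood in 4 of these 5 promoters (Ppp2r2c, Asb13, Fam168a and Ptprn2) and in 33.1% of all 33469 promoters in the table. The E-box stood in Asb13 alone and in 6.42% of all promoters. The core TGACG of the cAMP response element (CRE) was found in Map2k4 alone, at 2 places, and in 21.2% of all promoters. It is not capitalised. The full CRE TGACGTCA, which contains that core, the CCAAT box CCAAT, the AP-1 site TGAGTCA, the TATA box TATAAA and the EGR site GCGTGGGCG had no match in these windows. The GC content was 73.7% for Ppp2r2c, 64.7% for Map2k4, 57.0% for Asb13, 67.3% for Fam168a and 69.0% for Ptprn2, above the median of 51.7% over all promoters. These letters describe the sequences and were not tied to any measurement.

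Levels are log2 processed signals minus the array's 75th percentile, so a level of 0 is the 75th percentile of that array. Between 72.3% and 77.6% of probes were well above background on an array, and the number of arrays limits the precision. All 10 probes of the members were well above background on all 16 arrays, so every value of the members below is a measured signal. The arrays lay on 2 slides, and each slide held all 3 groups. The RNA protocol in the labels is one for blood, globin removal included, and the tissue is given as brain. Of 12 neuronal markers 11 could be tested, and their mean level lay between 2.54 and 3.47 over the 16 arrays. The 4 neutrophil markers tested averaged -6.12 to -4.12 in control, -5.01 to -2.99 in saline and -3.29 to -1.62 in hUMSC. S100a8, S100a9 and Camp were well above background on 16 arrays, Trem1 on 9, Cxcr2 on 4, and Elane and Ngp on 0. In whole tissue, fewer cells of a type and less RNA per cell cannot be told apart.

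**Figure D1:**
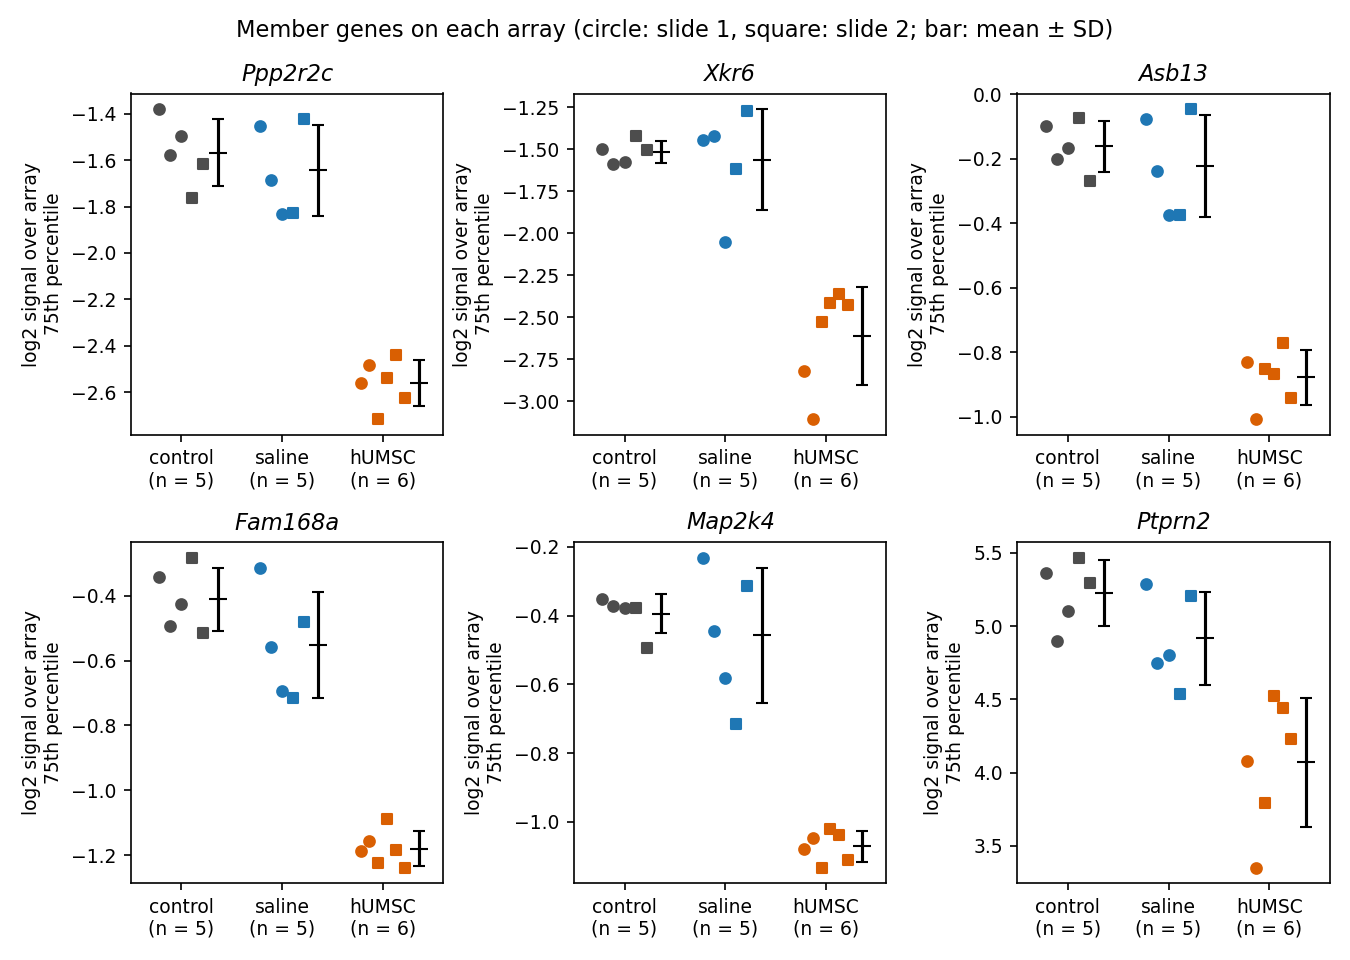
Log2 signal over the array's 75th percentile (vertical axis) of the 6 genes on each of 16 arrays, by group (5 control, 5 saline, 6 hUMSC), with circles for slide 1, squares for slide 2 and bars for the group mean ± SD. For each gene the 6 hUMSC arrays lie below the 5 saline and the 5 control arrays, with a gap of 0.61 for Ppp2r2c and 0.02 for Ptprn2 between the highest hUMSC and the lowest saline array.

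All 6 genes were lower on every hUMSC array than on every saline array and every control array, while the control and saline arrays overlapped for each of them. Over all genes, 2.97% had every hUMSC array below every saline array and 26.9% had every hUMSC array below every control array. The genes were picked on the first of these contrasts, so nothing is read from their count. The order of the group means was the same for the 6 genes, with control highest, saline a little lower and not separate from it, and hUMSC lowest.

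Ppp2r2c, the PP2A subunit, had levels of -1.38, -1.58, -1.50, -1.76 and -1.62 on control arrays 1 to 5. On saline arrays 1 to 5 they were -1.45, -1.68, -1.83, -1.83 and -1.42. On the 6 hUMSC arrays the lowest was -2.72, the median -2.55 and the highest -2.44. Saline arrays 1 and 5 sat among the controls, saline array 2 lay within their range and saline arrays 3 and 4 just under it, and the hUMSC arrays formed a separate low group. The hUMSC mean was -0.92 ± 0.09 (SE) from the saline mean on the log2 scale, 1.89-fold lower, and -0.99 ± 0.09 from the control mean.

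Map2k4, the JNK and p38 kinase, varied little among the control and among the hUMSC arrays. Its probe A_64_P151718 read -0.35, -0.37, -0.38, -0.38 and -0.49 on control arrays 1 to 5. The saline arrays read -0.23, -0.45, -0.58, -0.71 and -0.31 in the same order. The hUMSC arrays ran from -1.13 to -1.02 with a median of -1.06. Saline arrays 1 and 5 were the highest of all 16 arrays, saline arrays 3 and 4 lay below every control, and the saline range was wider than that of the other groups. The hUMSC mean was -0.61 ± 0.07 from saline, 1.53-fold lower, and -0.68 ± 0.07 from control.

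Asb13, the cullin 5 substrate receptor, read -0.10, -0.20, -0.17, -0.07 and -0.27 in the controls. The saline arrays read -0.08, -0.24, -0.37, -0.37 and -0.05. The hUMSC arrays ran from -1.01 to -0.77, with a median of -0.86. Here too saline arrays 1 and 5 lay at the upper end of the controls and saline arrays 3 and 4 lay below all 5 of them. The hUMSC mean was -0.66 ± 0.07 from saline, 1.58-fold lower, and -0.72 ± 0.07 from control.

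Fam168a was measured by probe A_44_P975945 at -0.34, -0.49, -0.43, -0.28 and -0.51 in the controls. In the saline arrays it was -0.32, -0.56, -0.69, -0.71 and -0.48. In the hUMSC arrays it ran from -1.24 to -1.09, with a median of -1.19. The hUMSC arrays spanned 0.15, against 0.40 for the saline arrays, and saline arrays 2 to 4 lay below the controls. The hUMSC mean was -0.63 ± 0.07 from saline, 1.54-fold lower, and -0.77 ± 0.07 from control.

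Xkr6, the XK-family protein, had the largest mean difference of the 6 between hUMSC and saline, and Ptprn2 the largest between hUMSC and control. The Xkr6 probe A_64_P066251 read -1.50, -1.59, -1.57, -1.42 and -1.50 in the controls and -1.44, -1.42, -2.05, -1.61 and -1.27 in the saline arrays. The hUMSC arrays read -2.82, -3.11, -2.53, -2.42, -2.36 and -2.43 for replicates 5 to 10. Saline replicate 3 was the low array of its group, and hUMSC replicates 5 and 6, the 2 hUMSC arrays on slide 1, were lower than the 4 on slide 2. The hUMSC mean was -1.05 ± 0.14 from saline, 2.07-fold lower, and -1.09 ± 0.14 from control.

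Ptprn2, the dense-core vesicle protein, was the most variable. Its probe A_64_P047097 read 5.36, 4.89, 5.11, 5.47 and 5.29 in the controls and 5.29, 4.75, 4.80, 4.54 and 5.20 in the saline arrays. The hUMSC arrays read 4.08, 3.35, 3.79, 4.52, 4.44 and 4.23 for replicates 5 to 10. Replicate 6 was lowest and replicate 8 stood next to saline replicate 4, so the groups barely separated. The hUMSC mean was -0.85 ± 0.20 from saline, 1.80-fold lower, and -1.16 ± 0.20 from control.

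In the fit over all genes with limma and Benjamini-Hochberg adjustment at 0.05, 1633 genes (7.98%) were called lower and 987 (4.82%) higher in hUMSC than in saline. Scaling by the array median instead gave 1159 lower and 1187 higher, so the balance of directions in that contrast depends on the scaling. A fit of the hUMSC and saline arrays alone, without the less variable controls, called 38 lower and 9 higher. The 6 members are among the 1633, which is how they were found. Ordered by p, Ppp2r2c, Asb13, Fam168a, Map2k4 and Xkr6 stood at places 1, 2, 4, 6 and 14, and Ptprn2 stood at place 471. Lifr, a receptor subunit for leukaemia inhibitory factor, stood at place 3 with a change of -0.56, and Pam, which amidates neuropeptides, at place 9 with -0.65. Zbtb16 stood at place 11 with -0.81 and Zfpm2 next to Ptprn2 with -0.34. The first named genes outside the threshold were Spem1 at -0.36 and Gorasp1 at -0.23. By size of change the members stood lower in the order, Xkr6 at 20, Ppp2r2c at 46, Ptprn2 at 62, Asb13 at 213, Fam168a at 256 and Map2k4 at 273 of the 1633. Asb13, Fam168a and Map2k4 thus ranked early by p with modest changes and small within-group SDs of 0.11, 0.11 and 0.12, below the median of 0.19 over all genes. The within-group SD was 0.15 for Ppp2r2c, 0.25 for Xkr6 and 0.35 for Ptprn2.

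The comparison of saline with control covers occlusion together with its surgery and the saline, which cannot be told apart without a sham-operated group. It shares the saline arrays with the contrast that chose them, and a choice of genes high in saline works against finding them low there. By limma's test with Benjamini-Hochberg adjustment, 0 of 6 members were called, whereas 2628 of all genes (12.8%) were called lower and 2933 (14.3%) higher, together 27.2%. At an unadjusted p under 0.05, 0 of 6 members and 8355 of the 20471 genes passed, counting both directions. The change was -0.08 for Ppp2r2c, with a 95% interval of -0.28 to 0.13 and an adjusted p of 0.577. It was -0.04 for Xkr6 (-0.37 to 0.28, adjusted p 0.854) and -0.06 for Asb13 (-0.22 to 0.10, adjusted p 0.582). It was -0.06 for Map2k4 (-0.23 to 0.11, adjusted p 0.579), -0.14 for Fam168a (-0.30 to 0.02, adjusted p 0.172) and -0.31 for Ptprn2 (-0.76 to 0.14, adjusted p 0.282). These intervals leave room for a fall in the saline group, and for Ptprn2 for one nearly as large as its mean difference between hUMSC and saline. Without saline replicate 1 the Fam168a change was -0.20 and was called (adjusted p = 0.0364). Without saline replicates 1 and 5 together, Fam168a at -0.24 (adjusted p = 0.0101) and Map2k4 at -0.19 (adjusted p = 0.0313) were called lower in saline than in control by limma. In that fit 5 of 6 members were lower at an unadjusted p under 0.05, which 10498 of the 20471 genes passed in either direction. After adjustment 24.3% of all genes were called lower in place of 12.8%.

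Between hUMSC and control all 6 genes were called lower, in a comparison where 7638 genes (37.3%) were called lower and 5062 (24.7%) higher. It shares the hUMSC arrays with the contrast that chose the genes, so their p-values are not given. The median change over all genes was -0.13 there, -0.07 between hUMSC and saline and -0.04 between saline and control, and the members' changes are to be read beside these. On the probe standing for each gene, all 6 met a pattern: lower in hUMSC than in both other groups, saline against control not called. It held for 1209 genes, 5.91% of all genes but 74% of the 1633 called lower in hUMSC than in saline. The members come from these 1633. The second probe of Xkr6 also met the pattern, while those of Fam168a, Map2k4 and Ptprn2 were not called between hUMSC and saline. Of the 1633 genes lower in hUMSC than in saline, 1490 were also lower than control, 281 were lower in saline than in control and 31 were higher.

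**Figure D2:**
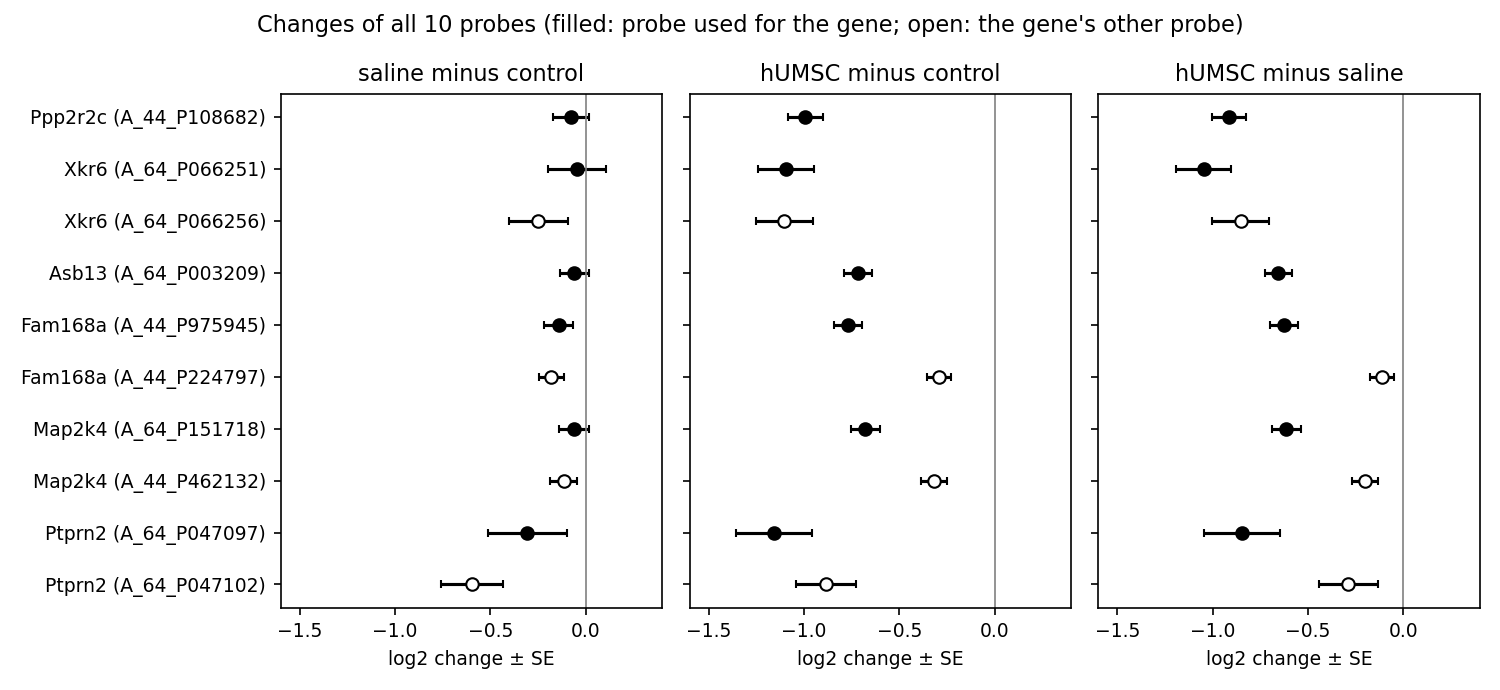
Log2 change ± SE (horizontal axis) of all 10 probes of the 6 genes in the 3 comparisons, with filled points for the probe that stands for the gene and open points for its other probe. The second probe of Xkr6 changed by -0.85 between hUMSC and saline, and those of Fam168a, Map2k4 and Ptprn2 by -0.11, -0.20 and -0.29.

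A second probe was present for 4 of the genes, and in all 4 it showed a smaller difference between hUMSC and saline than the probe that stands for the gene. The second probe of Xkr6, A_64_P066256, was -0.85 ± 0.15 from saline and -1.10 ± 0.15 from control. Its hUMSC arrays ran from -4.69 to -3.76 and its saline arrays from -3.78 to -3.27, so the groups overlapped at 1 array, hUMSC replicate 9. For Fam168a, probe A_44_P224797 read between -3.50 and -3.21 in hUMSC and between -3.24 and -3.19 in saline. These ranges overlap, and the difference was -0.11 ± 0.06. That probe was lower in saline than in control by 0.18 ± 0.06, with an adjusted p of 0.0486 in a limma fit over all tested probes.

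The second Map2k4 probe, A_44_P462132, read -1.61, -1.80, -1.86, -1.88 and -1.48 on saline arrays 1 to 5 and between -1.99 and -1.87 on the hUMSC arrays. The hUMSC arrays overlapped with saline array 4 and lay below all controls, which ran from -1.65 to -1.54. The difference from saline was -0.20 ± 0.07. For Ptprn2, probe A_64_P047102 read between -0.22 and -0.11 in the controls, -0.38, -1.29, -0.80, -0.88 and -0.40 in saline arrays 1 to 5, and -1.45 to -0.74 in hUMSC. Every saline array was below every control array on this probe, as for 8.45% of all genes, and the saline and hUMSC arrays overlapped. Its change was -0.60 ± 0.16 between saline and control, with an adjusted p of 0.0167 in limma's fit over probes, and -0.29 ± 0.16 between hUMSC and saline. On this probe the larger change lay between control and saline, and on the first it lay between saline and hUMSC, a difference between probes that was not tested. Which transcripts each probe matches was not analysed here.

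Within an array, the first minus the second Fam168a probe was 2.67 ± 0.16 (SD, n = 5) in saline and 2.63 ± 0.15 in control, and 2.16 ± 0.11 (n = 6) in hUMSC. The highest hUMSC value was 2.31 and the lowest of the other arrays 2.50. For Map2k4 the same quantity was 1.27 ± 0.10 in saline, 1.21 ± 0.07 in control and 0.85 ± 0.07 in hUMSC, with 0.95 the highest hUMSC value and 1.12 the lowest of the others. The paired probes of each of these genes thus changed unequally between the groups, which was not tested. For Xkr6 (1.86 in saline, 1.67 in hUMSC) and Ptprn2 (5.67 and 5.11) the arrays of the groups overlapped. Deviations from the group means correlated between the probe pair over 16 arrays at 0.78 for Xkr6, 0.73 for Map2k4, 0.68 for Ptprn2 and 0.03 for Fam168a, as a description.

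**Figure D3:**
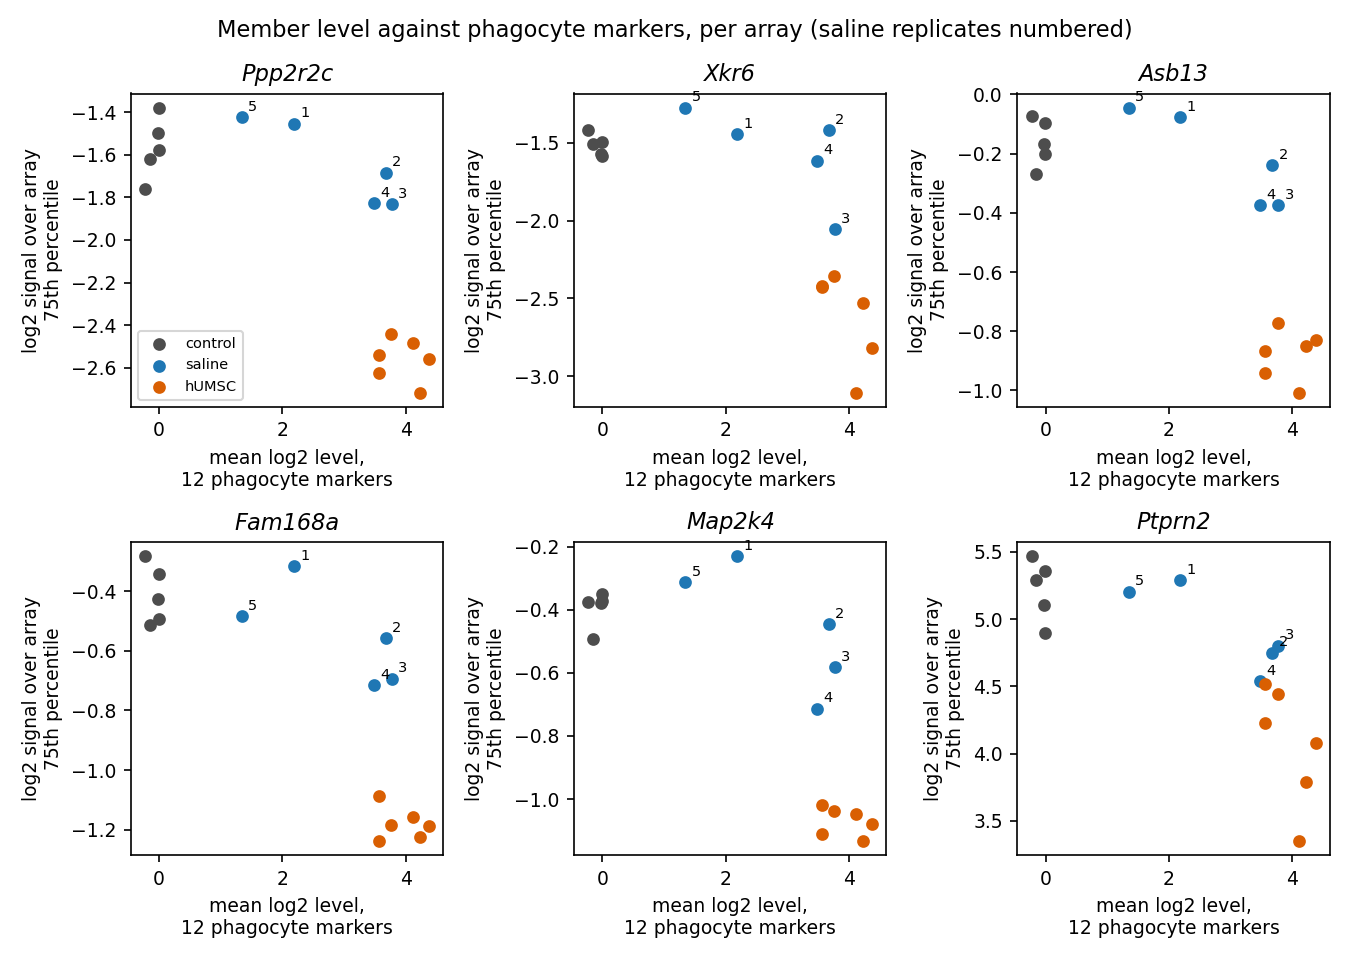
Log2 level of each of the 6 genes (vertical axis) against the mean log2 level of 12 phagocyte markers on the same array (horizontal axis), with control in grey, saline in blue and numbered, and hUMSC in orange. Saline arrays 2, 3 and 4 lie within or just under the marker range of the hUMSC arrays and hold higher levels of all 6 genes, while saline arrays 1 and 5 lie between them and the controls on the marker axis.

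The saline arrays differed among themselves in markers of infiltrating and activated phagocytes, and the 6 genes moved with them. The mean of 12 phagocyte markers was between -0.23 and -0.0047 in the controls. It was 2.19, 3.68, 3.77, 3.48 and 1.35 on saline arrays 1 to 5. On hUMSC arrays 5 to 10 it was 4.38, 4.11, 4.23, 3.56, 3.76 and 3.56. Saline arrays 1 and 5 had lower phagocyte markers than the rest of the occluded arrays and the highest or second highest saline level of Ppp2r2c, Map2k4, Asb13, Fam168a and Ptprn2. Neuronal markers averaged 3.43 to 3.47 in control, 2.91 to 3.42 in saline and 2.54 to 2.95 in hUMSC. Deviations of the 6 genes from their group means correlated with those of the phagocyte mean at -0.67 to -0.58 and with those of the neuronal mean at 0.56 to 0.70 over 16 arrays, which share array and scaling. Between hUMSC and saline, 3 of 12 phagocyte markers (median change 1.05), 2 of 4 neutrophil markers (1.93), 5 of 8 endothelial markers (0.50), 1 of 8 reactive astrocyte markers (1.09), 1 of 7 microglial markers (0.27) and 1 of 7 proliferation genes (1.04) were called higher. Of 11 neuronal markers 4 were called lower, with a median change of -0.37. Of 7 resting astrocyte markers (-0.05), 8 oligodendrocyte markers (0.06) and 5 red blood cell markers (-0.79), 0 were called. Over all genes 4.82% were called higher and 7.98% lower. Without saline replicates 1 and 5 the genes called higher went from 987 to 5 over all genes. The part of these marker shifts in the members' difference was not tested.

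On saline arrays 2 to 4 the phagocyte mean, 3.48 to 3.77, overlapped with that of hUMSC arrays 8 to 10, 3.56 to 3.76. The neuronal mean of these 3 saline arrays was 2.91 to 2.98, and that of the hUMSC arrays 2.54 to 2.95. All 6 genes were higher on these 3 saline arrays than on the hUMSC arrays, which the way the genes were chosen favours. Without saline replicates 1 and 5 the difference between hUMSC and saline was -0.78 for Ppp2r2c, -0.91 for Xkr6, -0.55 for Asb13, -0.52 for Fam168a, -0.49 for Map2k4 and -0.63 for Ptprn2. This refit uses the contrast that chose the genes, so its calls describe how the fit changes and are no test of the members. It called 18 genes lower in place of 1633, with Ppp2r2c, Asb13, Fam168a and Map2k4 among them and Xkr6 and Ptprn2 not. Ptprn2 also lost its call without saline replicate 1 (-0.76), without saline replicate 5 (-0.78), without hUMSC replicate 7 (-0.79) and without hUMSC replicates 5 and 6 together (-0.67).

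**Figure D4:**
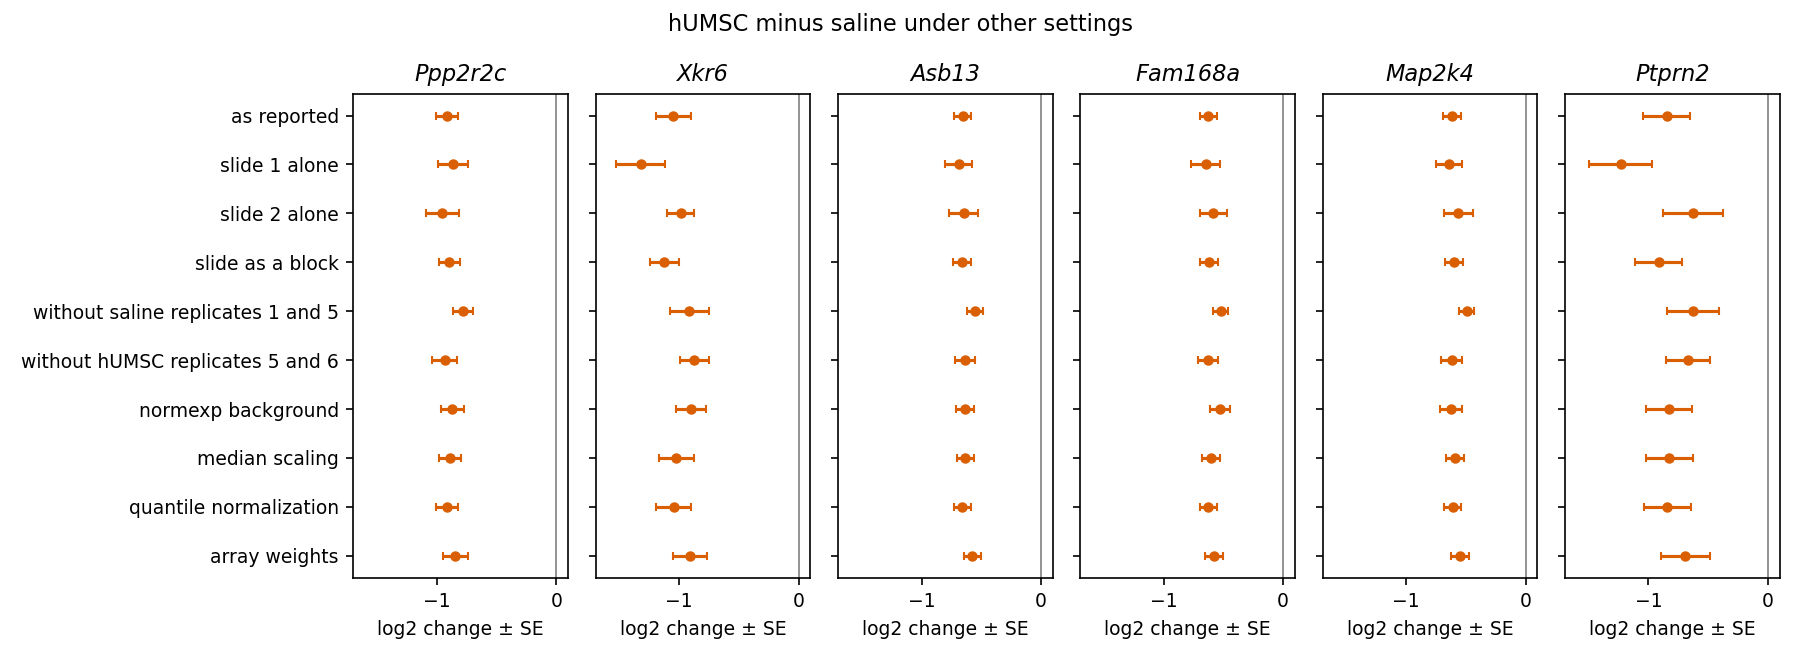
Log2 change ± SE between hUMSC and saline (horizontal axis) for each of the 6 genes under 10 settings, from the values as reported to array weights. All points lie below 0. Xkr6 ranges from -1.32 on slide 1 to -0.87 without hUMSC replicates 5 and 6, and Ptprn2 from -1.23 on slide 1 to -0.63 on slide 2.

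Within slide 1 alone, with 3 saline and 2 hUMSC arrays, the differences were -0.86 for Ppp2r2c, -1.32 for Xkr6, -0.69 for Asb13, -0.65 for Fam168a, -0.64 for Map2k4 and -1.23 for Ptprn2. Within slide 2, with 2 saline and 4 hUMSC arrays, they were -0.95, -0.99, -0.65, -0.59, -0.56 and -0.63 in the same order. Both slides gave the same direction for each gene. Every hUMSC array lay below every saline array for these genes, so either slide had to give it, and it is no replication. Ppp2r2c, Asb13, Fam168a and Map2k4 were close on the 2 slides, and Ptprn2 was larger on slide 1. With slide as a block the differences were between -1.12 for Xkr6 and -0.60 for Map2k4.

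Ppp2r2c, Map2k4, Asb13 and Fam168a were among one another's closest named genes. The measure of likeness was Pearson's r of the 16 log2 values, which is dominated by the low hUMSC group they were picked for and is given as a description. Map2k4 was the named gene closest to Ppp2r2c (0.98), Asb13 (0.98) and Fam168a (0.98). Pam (0.97) was next for Ppp2r2c, Trim44 (0.98) was next for Fam168a and Vps4a (0.98) was second for Map2k4. The named genes closest to Xkr6 were others: Pcdh9, a protocadherin (0.97), Erc2, an active-zone scaffold protein (0.97), and Ptprt, a receptor phosphatase (0.96). Those closest to Ptprn2 were Cym (0.99), the glycine receptor subunit Glra2 (0.98) and Extl3 (0.98).

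With the group means removed, the deviations of the 6 genes correlated positively in all 15 pairs, from 0.28 between Ppp2r2c and Xkr6 to 0.87 between Fam168a and Map2k4. The share of positive pairs among other genes was not computed, so nothing particular to the 6 is read from this. By the correlation of deviations the closest named gene was Cyp51 for Ppp2r2c (0.89), Leng1 for Xkr6 (0.94), Stk25 for Asb13 (0.83), Uqcc2 for Fam168a (0.90), Mkks for Map2k4 (0.92) and Cym for Ptprn2 (0.97). For Cyp51 the change between hUMSC and saline was -0.13, for Leng1 -0.12, for Stk25 -0.13, for Uqcc2 -0.20 and for Mkks -0.33. Between hUMSC and control their changes were -0.57, -0.28, -0.40, -0.35 and -0.56 in the same order. Between hUMSC and saline Cym changed by -1.03, with Glra2 at -0.97 and Extl3 at -1.02.

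The other genes of the members' families and pathways were tested as 129 genes in 6 lists. Between hUMSC and saline 22 of these were called lower and 4 higher, beside 7.98% and 4.82% of all genes, and their median change was -0.09 beside -0.07. The 22 became 2 without saline replicate 1, 5 without saline replicate 5, 7 without hUMSC replicate 5, 9 without hUMSC replicate 6 and 7 without hUMSC replicate 7. They became 12 to 14 without a control array and 13 without hUMSC replicate 9. Without saline replicates 1 and 5 together only Pam remained. On slide 1 alone 4 were lower and 1 higher, and on slide 2 alone 0 were called, while with slide as a block 37 were lower and 15 higher. A fit of the hUMSC and saline arrays alone called 1 lower and 0 higher, and so did array weights. With no filter on dim probes 11 of 141 were lower and 1 higher. Probes well above background on all 16 arrays gave 26 lower and 4 higher of 127. The calls named for these lists below come from the fit that includes the control arrays. The 4 higher genes became 0 without saline replicate 1 or 5 or without hUMSC replicate 5, 6 or 7, 2 without any 1 control array or hUMSC replicate 9, and 7 to 9 without saline replicate 2, 3 or 4 or hUMSC replicate 8. Between saline and control 35 of the 129 were lower and 12 higher, beside 12.8% and 14.3% of all genes. Between hUMSC and control 71 were lower and 22 higher, beside 37.3% and 24.7% of all genes.

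**Figure D5:**
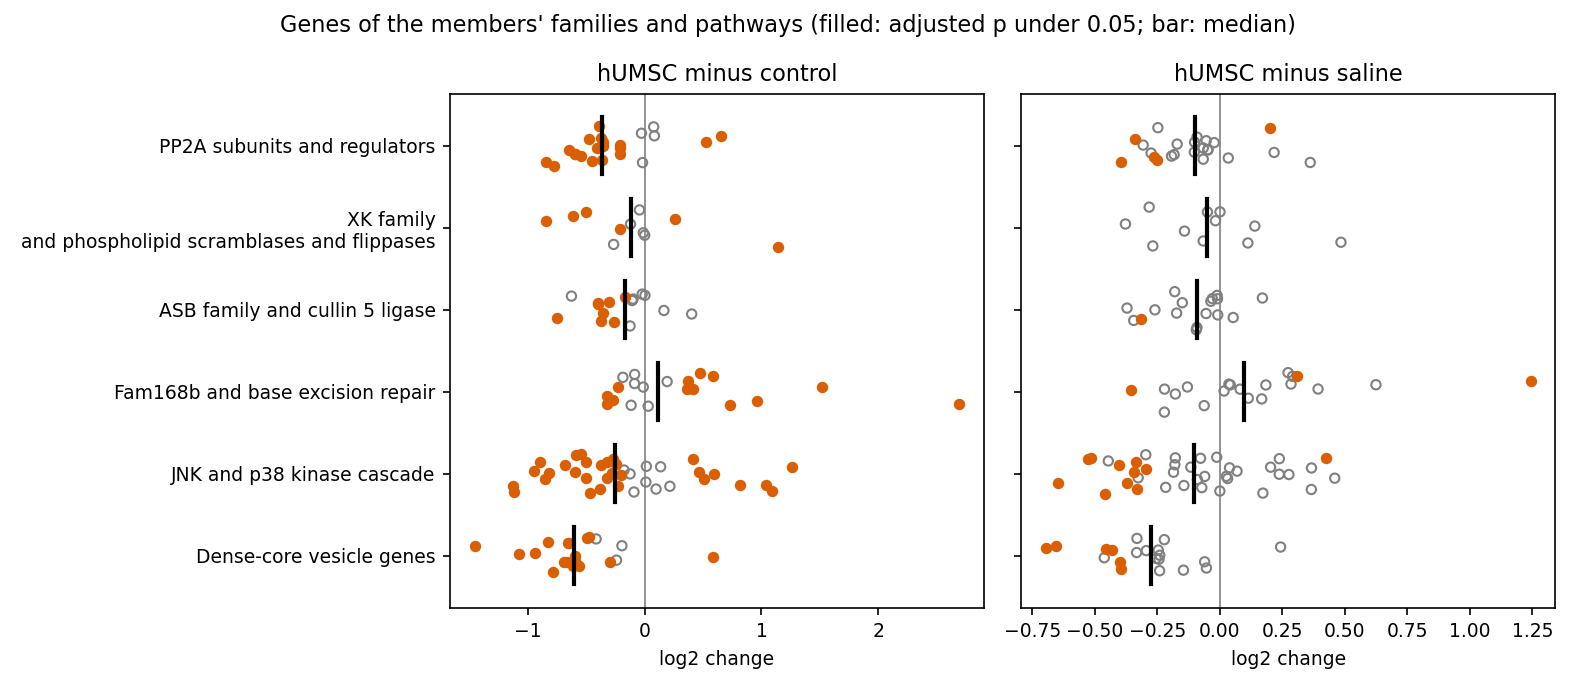
Log2 change (horizontal axis) of 129 genes in 6 lists of the members' families and pathways, between hUMSC and control and between hUMSC and saline, with filled points for an adjusted p under 0.05 in limma and a bar for each list's median. Dense-core vesicle genes have the lowest medians, -0.61 against control and -0.27 against saline.

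Of 23 PP2A subunits and regulators other than Ppp2r2c, 4 fell and 1 rose between hUMSC and saline, with a list median of -0.10. Ppp2r3a, another regulatory subunit, fell by 0.34 ± 0.07 (limma adjusted p = 0.0156). Ppp2r5c fell by 0.25 ± 0.07 and the methylesterase gene Ppme1 by 0.39 ± 0.11 (adjusted p of 0.0295 and 0.0402 in limma). The second Ppp2r5c probe, A_64_P056406, read -0.11 and was not called (adjusted p = 0.198 in limma's fit over probes). The B-type subunits closest in family to Ppp2r2c, named here outside the naming rule, had values of -0.07 ± 0.06 for Ppp2r2a, -0.31 ± 0.10 for Ppp2r2b and -0.05 ± 0.07 for Ppp2r2d, none of them called. Between saline and control 12 of the 23 fell and 0 rose, with Strn at -0.51, Ppp2r2a at -0.39 and the catalytic subunit Ppp2ca at -0.35. Between hUMSC and control 17 fell and 2 rose, beside 37.3% and 24.7% of all genes, with Strn at -0.78, Ppp2r5b at -0.60 and Ppme1 at -0.84.

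Of 38 genes listed for the JNK and p38 cascade, 10 fell and 1 rose between hUMSC and saline, with a median of -0.10. The list also holds Map2k1, Map2k2 and Map2k5, kinase genes of the ERK cascades, none of them called in this comparison. Atf2, a transcription factor that JNK and p38 phosphorylate, fell by 0.33 ± 0.07 (limma adjusted p = 0.0172), and its second probe read -0.33 as well. The upstream kinase gene Taok3 fell by 0.52 ± 0.11 and the JNK gene Mapk9 by 0.34 ± 0.08 (adjusted p of 0.0185 and 0.0204 in limma). The JNK genes Mapk8 and Mapk10 and the JNK kinase gene Map2k7, singled out after their values were seen, were also among the 10, at -0.37, -0.46 and -0.33. Between saline and control 13 fell and 6 rose: Dusp1, which inactivates these kinases, fell by 1.17, the p38 gene Mapk14 fell by 0.28 and Jun rose by 0.50. Between hUMSC and control 22 fell and 8 rose, beside 37.3% and 24.7% of all genes, with Atf2 at -0.55, Mapk10 at -0.95 and Map3k3 at 0.50. The second Map3k3 probe, A_44_P321669, read 0.21 there and was not called (adjusted p = 0.153 in limma's fit over probes).

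Dense-core vesicle genes other than Ptprn2 had the lowest list median between hUMSC and saline, -0.27, and 6 of 20 fell while 0 rose. The neuronal markers had a median of -0.37 in the same comparison, and their part in the list's change was not tested. Pam fell by 0.65 ± 0.09 (limma adjusted p = 0.00291), from 0.06 ± 0.18 (SD, n = 5) in saline to -0.59 ± 0.13 (SD, n = 6). Rab27b, a small GTPase of vesicle release, fell by 0.43 ± 0.08, and the prohormone convertase gene Pcsk2 fell by 0.45 ± 0.13 (adjusted p of 0.0129 and 0.0374 in limma). Ptprn, the nearest relative of Ptprn2 and named outside the naming rule, had a value of -0.06 ± 0.10 and was not called. Between saline and control 6 fell and 0 rose, with Ica1 at -0.42, Rph3a at -0.76 and Pcsk2 at -0.49. Between hUMSC and control 16 fell and 1 rose, beside 37.3% and 24.7% of all genes, with Pam at -0.79, Rph3a at -1.46 and Pcsk2 at -0.94.

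The remaining lists moved less between hUMSC and saline. Of 17 genes of the ASB family and the cullin 5 ligase, 1 fell and 0 rose: Cul5, the scaffold to which Asb13 binds, fell by 0.31 ± 0.08 (limma adjusted p = 0.0265). Arih2 was the gene of that list called between saline and control, at -0.24. Between hUMSC and control 8 of 17 fell, beside 37.3% of all genes, with Asb1 at -0.40, Asb3 at -0.38 and Asb6 at -0.31. Of 11 genes in the list of the XK family, scramblases and flippases, which also holds Bsg and Nptn, 0 were called between hUMSC and saline by limma. Another Nptn probe, A_64_P077723, was lower at -0.54 (adjusted p = 0.0485 in limma's fit over probes). A further one, A_64_P039328, was not called at -0.30. Xkr4, a scramblase of the family, fell by 0.47 between saline and control and by 0.85 between hUMSC and control, and Plscr1 rose by 0.66 and by 1.14. Ano4 fell by 0.36 between saline and control, and Nptn fell by 0.61 between hUMSC and control.

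Among 20 genes of base excision repair with Fam168b, 1 fell and 2 rose between hUMSC and saline, and the list median was 0.10. Polb, the DNA polymerase beta gene, fell by 0.36 ± 0.09 and Parp2 rose by 0.31 ± 0.09 (adjusted p of 0.0283 and 0.0362 in limma). Neil3, a DNA glycosylase gene, read 1.24 higher but was well above background on 2 of 5 saline arrays and on 0 control arrays. Fam168b, the paralogue of Fam168a, had a value of -0.18 ± 0.06 and was not called. Between saline and control 5 rose and 0 fell, with the DNA ligase gene Lig1 at 0.56 and the uracil glycosylase gene Ung at 0.90. Between hUMSC and control 9 rose and 4 fell, beside 24.7% and 37.3% of all genes, with Lig1 at 0.96 and Ung at 1.52.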

How the data were processed

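RNA from 16 brain samples was labelled with Cy3 and hybridised to 1 array each, per the labels. The deposited scanner files hold the processed signal, the median spot signal and the background, each as an intensity per spot. Of these the processed signal was background-subtracted and detrended, by Agilent Feature Extraction 11.0.1.1 per the file headers. The submitters' processing notes write the version as 100.0.1.1. Spot flags (well above background, outlier, saturated) are other codes per the file headers. Values in the series table are, as deposited, an intensity equal to the mean processed signal over a probe's spots (largest relative difference 2e-10), not scaled or centred, and it served as an alternative.

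Control spots and outlier spots were dropped, spots of a probe were averaged on the log2 scale, and the 75th percentile of the non-control probes on that array was subtracted. Of 30367 probes, 18355 matched 15443 symbols through their accession in a RefSeq gene list on the GRCr8 build, and 12012 matched none. The array annotation names build rn4, so no gene positions from it are printed. Left out were 9 probes without a usable spot on some array. No probe was saturated. Testing required a signal well above background on 5 or more arrays, and the probe with the highest mean stood for a gene. The fit was a group-means model in limma 3.58.1 (R 4.3.3, with the data.table package, version 1.17.8) over 16 arrays with 13 residual degrees of freedom, two-sided moderated tests and Benjamini-Hochberg adjustment over all 20471 genes at 0.05. It was tested on simulated data. Errors are standard errors of that fit unless marked SD. The fit shares 1 spread per gene over the 3 groups. The median SD over all genes was 0.11 in control, 0.21 in saline and 0.19 in hUMSC. Errors and p-values between hUMSC and saline thus borrow spread from the less variable controls.

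The members, the lists of related and marker genes and the alternatives were chosen with earlier results of these data known. Genes named besides the members are up to 3 called genes of smallest adjusted p per related list and comparison, the 3 named genes most like each member by either measure, and the neighbours of the members in the order by p. Alternatives covered background correction, scaling, the filter on dim probes, slide, weights, the value table, probes and left-out arrays.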

Additional observations from a re-analysis of the deposited data

Results flagged for a closer look

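Over the 10 probes and 3 groups, 30 sets of 5 or 6 arrays were examined for an array far from the rest, and 2 were past Dixon's limit. Chance passes about 1 in 20 such sets. On the second Xkr6 probe, A_64_P066256, saline replicate 3 stood at -3.78, while the other saline arrays lay between -3.39 and -3.27. On the Map2k4 probe A_64_P151718, control replicate 5 stood at -0.49, while the other controls lay between -0.38 and -0.35.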

How the results depend on the processing

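The difference between hUMSC and saline kept its sign for all 6 genes under the 29 alternatives run for each and on the second probes. The genes were chosen on this contrast in these arrays, so the kept sign is no test of them. Ptprn2 dropped below the threshold in 8 of them and Xkr6 in 2, and the other 4 genes in 1 each, slide 2 alone. The number of members called between hUMSC and saline was 6 as reported, 0 on slide 2 alone, where 0 of all genes were called by limma (3191 at an unadjusted p under 0.05), and 5 to 6 with 1 array left out. Between saline and control it was 0 as reported, 1 with median scaling, 1 with array weights (Fam168a in both), 2 without saline replicates 1 and 5 (of all genes 4874, 5115 and 4980 were then lower, in place of 2628), and 0 to 1 with 1 array left out. Between hUMSC and control it was 6 in every setting, 6 to 6 with 1 array left out. The sign of the uncalled change between saline and control turned for Ppp2r2c in 1, for Xkr6 in 2 and for Map2k4 in 1 of 30 alternatives. The cause of these changes was not tested.

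Over all genes, the lower and higher counts between hUMSC and saline were 942 and 429 without a filter (more genes tested), 3739 and 2655 with slide as a block, 712 and 327 on slide 1, 38 and 9 from those 2 groups alone, 103 and 20 with array weights, 18 and 5 without saline replicates 1 and 5, and 133 and 16 without hUMSC replicates 5 and 6. With 1 array left out they were 158 to 2504 and 26 to 1793. Between saline and control, 2381 were higher with median scaling, and 1131 to 3964 were lower with 1 array left out. On slide 2, 3148 were lower and 3032 higher between hUMSC and control.

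Control and saline share replicate numbers 1 to 5 in the labels. Deviations of same-numbered arrays correlated at -0.05 to 0.18 and 1 of 5 saline arrays matched its own number best, so the numbers were not taken to pair the samples. With a replicate block, 0 members were called between saline and control, and of all genes 1046 were lower and 2153 higher. The hUMSC group shares 1 number with the others, so no such fit could be made for its comparisons. The 5 to 6 arrays per group limit the precision.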
